A study of Mus musculus with 9 samples.

Results

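The comparison sets 3 libraries of mouse acute myeloid leukaemia (AML) cells recovered from the bone marrow of recipient mice against 3 libraries of AML cells of the same genotype grown in culture, across all genes and from raw read counts. The libraries were taken by their titles and are 6 of the 9 in the series. The other 3 come from the lungs of recipients and enter only the shared estimate of the spread and a few side values. All 9 libraries carry the genotype Trp53(R172H/Δ), where R172H denotes an amino acid substitution in the p53 protein, and the recipients are described as WT. No drug or other treatment is named. The labels do not say which lesion drives the leukaemia, whether the cells are 1 clone, how long they were in the recipients, how many mice or cultures were used, or how the cells were separated from the host's own. The series title names tissue microenvironments in AML as its subject, so the comparison addresses how the marrow state of these cells differs from their state in vitro. Nothing in the labels says that the libraries of a group came from separate mice or cultures, so the p-values measure the spread between these libraries, which may be technical.

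Cells in culture take oxygen, sugar, lipid and amino acids from medium, whereas cells in marrow share them with stromal, endothelial and immune cells. A few well-known systems adjust gene expression to that supply: the SREBP factors respond to sterols, the HIF factors to low oxygen, and ATF4, the effector of the integrated stress response, to amino acid shortage and to stress in the endoplasmic reticulum. Interferons act through the JAK and STAT proteins and raise antiviral and antigen presentation genes, and MYC is known for raising ribosome production.

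The main features of the marrow libraries were as follows. Genes of lipid synthesis, glycolysis, the ATF4 response and the immediate early class fell together, some by over 10-fold. Genes of ribosome production, the proteasome, the respiratory chain, nucleotide synthesis and the interferon response rose together, with list medians under 2-fold except for interferon genes. Genes of mitosis fell, whereas more replication genes rose than fell. Granule genes of maturing neutrophils, at a few reads in culture, gave the steepest rises.

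Each library, amplified with a SMART-seq v4 kit, held between 27485111 and 38761363 counted reads. Levels are CPM values (read counts scaled to the normalized library size), given per library in the order of replicates 1 to 3, or as mean ± SD over n = 3. A log2 change is marrow minus culture with its standard error after ±. A gene is said to have passed, risen or fallen where its p in edgeR's quasi-likelihood test, adjusted by the method of Benjamini and Hochberg over 15066 genes, was under 0.05. Positions of genes are in GRCm38 with GENCODE M21 and cover the whole gene. The spread was wider in marrow, with a median coefficient of variation of 13.7% against 6.75% in culture. In the principal components of the 6 libraries, the first component (82.8% of the variance) separated the groups, with culture between -75.37 and -72.45 and marrow at 60.67, 72.22 and 87.96. The second (7.16%) separated marrow replicate 3 (40.93) from marrow replicates 1 and 2 (-27.06 and -20.46).

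The test passed 9116 genes, 60.5% of those tested, of which 4626 (30.7%) were higher and 4490 (29.8%) lower in marrow. Over 2-fold changes were passed by 1890 genes upward (12.5%) and 1833 downward (12.2%), and over 32-fold changes by 270 upward and 71 downward. With the requirement that the change itself exceed 1.5-fold (glmTreat), 1896 genes passed upward and 2020 downward. The median change of all genes was 0.05. Marrow and culture libraries did not overlap for 67.2% of genes (34.3% higher and 32.9% lower in marrow), so a lack of overlap is common here and is read against that share. Counts of list members that rose or fell are likewise read against the 30.7% and 29.8% of all genes, apart from cell type markers at a few reads in culture.

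The labelled cell type was checked against its markers. Kit, the stem cell factor receptor of early blood cells, stood at 1167 ± 42.7 CPM in culture and 633 ± 59.5 in marrow, a log2 change of -0.88 ± 0.13 (adjusted p = 5.6e-05). Of the other surface and myeloid markers, Ptprc (CD45) was at 1.62 ± 0.369 CPM in culture and 1.78, 2.42 and 17.2 in the marrow libraries and did not pass (it did as higher without marrow replicate 1 or marrow replicate 2 and with length and GC correction). Mpo had 2 reads and Cd34 3 reads over the 3 culture libraries, and Flt3 had too few reads to be tested. Of the 12 tested members of the AML surface and myeloid list 9 were higher in marrow, Mpo and Cd34 among them, and Kit alone was lower. Mpo, Cd34 and others of the higher ones were tested only because other groups had reads, so their rise was nearly given. The higher count was 5 of 8 tested in a fit of the 6 libraries alone and 7 without marrow replicate 3. Under the stricter low-count filter (1 CPM in 6 libraries), 1 of 4 tested was higher and 1 lower. The call for Cd34 was lost without culture replicate 1, culture replicate 2 or marrow replicate 3. Summed, the list stood between 1252 and 1339 CPM in culture and between 716 and 882 in marrow. The erythroid regulators Gata1 and Klf1 were at 382 ± 5.903 and 306 ± 9.68 CPM in culture and at 344 ± 24.2 and 301 ± 18.8 in marrow, and neither passed the test (Gata1 fell with length and GC correction, -0.25). The cultured cells thus carried Kit and erythroid regulators and almost no reads of Mpo, Cd34 or Flt3, and they are called by their label here.

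Reads of genes known from other blood cells differed between the marrow libraries. Whether they came from host cells or from the leukaemia cells themselves was not tested. All 18 measured neutrophil maturation genes rose, and their summed level was between 2.152 and 3.385 CPM in culture and 400.5, 746.8 and 2608 in marrow replicates 1, 2 and 3. At so few culture reads, most of these genes were tested only because other groups had reads, so a rise was nearly given. Their count is thus not set against the 30.7% of all genes, and the same holds for the monocyte and macrophage genes below. Under the stricter low-count filter (1 CPM in 6 of the 9 libraries), 5 of the 18 were tested, and all 5 rose. Marrow and lung libraries alone can meet that filter, so this rise was nearly given too. Ngp, a granule protein, went from 0.445, 0.677 and 0.213 CPM to 89.98, 144 and 504, and Ltf (lactoferrin) from 0.185, 0.308 and 0.3196 to 52.6, 72.1 and 315. Marrow replicate 3 was the highest library for both. Both belong to the 12 steepest rises, which were picked among genes without overlap of the groups. The primary granule gene Mpo (myeloperoxidase) rose from 2 reads in culture to 3102 in marrow, a ratio of 1280 with a 95% exact binomial interval of 354.1 to 10580, which covers counting error only. Monocyte markers summed to between 0.6678 and 1.136 CPM in culture and to 33.7, 70.05 and 326.2 in marrow, with 7 of 8 members higher. Of resident macrophage genes, 9 of 11 rose, each from under 1 CPM, among them the complement gene C1qa, which had 0 reads in culture and 150 in marrow, at least 41.27-fold higher against a floor of 3 reads over the group, with 1.58, 1.36 and 1.32 CPM by marrow library and so no higher in replicate 3.

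**Figure D1:**
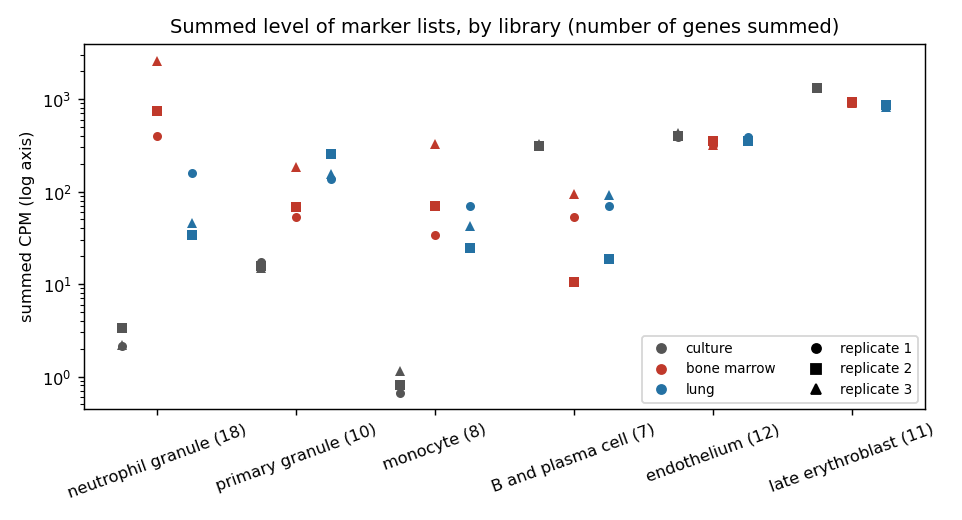
Summed CPM on a log axis of 6 marker lists in each of the 9 libraries, with colour for the group and shape for the replicate number. The neutrophil granule sum is under 4 CPM in all culture libraries and between 400.5 and 2608 in marrow, highest in marrow replicate 3, while the late erythroblast sum is between 1308 and 1351 in culture and between 896.5 and 938.3 in marrow.

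Marrow replicate 3 was the highest of the marrow libraries for 38.7% of the 4626 higher genes, for 30.1% of those up to 2-fold and for 82.6% of the 356 over 16-fold. The 12 steepest rises among genes without overlap that reached 10 CPM were all genes of granulocytes or monocytes: Mpo, S100a9, Lcn2, Camp, Ngp, Ltf, S100a8, Mmp8, Mmp9, Lyz2, Chil3 and Cd177. The part of these cells in each gene group described here was not tested, and in bulk RNA fewer cells of a type and less RNA per cell cannot be told apart. Without marrow replicate 3 the neutrophil list rose in 18 of 18 members as well. Of T and NK cell genes Lck, a kinase of T cells, was at 10.4 ± 0.235 CPM in culture and 8.41 ± 0.334 in marrow, which did not pass (it did as lower without lung replicate 3 and with length and GC correction), and 2 of 5 measured members of that list rose (3 without marrow replicate 2, and 1 without culture replicate 2, marrow replicate 3, lung replicate 1 or lung replicate 3, and with RLE scaling, limma-voom or the replicate block). B cell markers summed to between 310.8 and 325.2 CPM in culture and to 53.46, 10.65 and 94.93 in marrow, with 4 of 7 members higher and 1, which held most of the culture level, lower. Among the higher ones, Cd79b had 0 reads in culture against 138 in marrow, mostly in replicate 3 (0.327, 0.279 and 2.93 CPM by marrow library). Endothelial markers summed to between 389.3 and 428.8 CPM in culture and between 318.7 and 356.1 in marrow, with 3 of 12 members higher and 2 lower. The defining endothelial gene Cdh5 had 3 reads in each group.

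Transcript length moved with the direction of change. Among genes of 10 CPM or more, divided into 5 equal classes by transcript length, the class with the shortest transcripts had a median change of 0.27 and that with the longest -0.31. Of the shortest, 877 rose and 320 fell, and of the longest, 244 rose and 909 fell. All 3 marrow libraries showed this slope against the culture mean, by 0.236, 0.338 and 0.232 in the shortest class and by -0.234, -0.407 and -0.341 in the longest, while GC content gave medians between -0.09 and 0.01. A fit with each library corrected for length and GC, chosen after seeing the data, is given beside the lists it changed, and the origin of the slope was not tested.

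**Figure D2:**
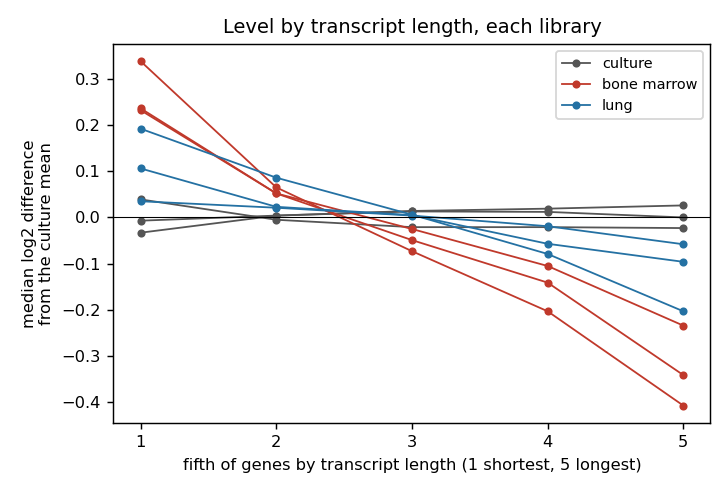
Median log2 difference from the culture mean for 5 classes of genes by transcript length, 1 line per library (each culture library is set against the other 2). The 3 marrow lines fall from between 0.232 and 0.338 in the shortest class to between -0.407 and -0.234 in the longest.

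Genes of chromosomes 3 and 6 were lower as a group in every marrow library. Relative to all genes of 10 CPM or more, the median of 409 chromosome 3 genes was -0.362, -0.365 and -0.341 in marrow replicates 1 to 3, and culture libraries lay within 0.013 of 0. The median of 390 chromosome 6 genes was -0.278, -0.298 and -0.318. On chromosome 3, 60 genes rose and 240 fell, and on chromosome 6, 64 rose and 211 fell, while the medians of the other chromosomes lay between -0.162 and 0.15. The shift held over windows of 20 Mb along all of chromosome 3 (medians from -0.627 to -0.094), and along chromosome 6 up to 120 Mb apart from the first 20 Mb, where marrow replicates 2 and 3 were at 0.08 and 0.015. Genes between 140 and 160 Mb of chromosome 6 lay above the median of all genes (0.176 to 0.199). It was present in each class of transcript length, from -0.025 against 0.294 on chromosomes other than 3 and 6 in the shortest class to -0.659 against -0.271 in the longest, for chromosome 3. Lung libraries showed it as well, at -0.254, -0.227 and -0.308 on chromosome 3. Single windows of other chromosomes were shifted alike, between 20 and 40 Mb of chromosome 7 (-0.507 to -0.402) and of chromosome 14 (-0.647 to -0.501). The part of these positions in the results was not tested, and for several lists counts are given again without members on chromosomes 3 and 6.

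**Figure D3:**
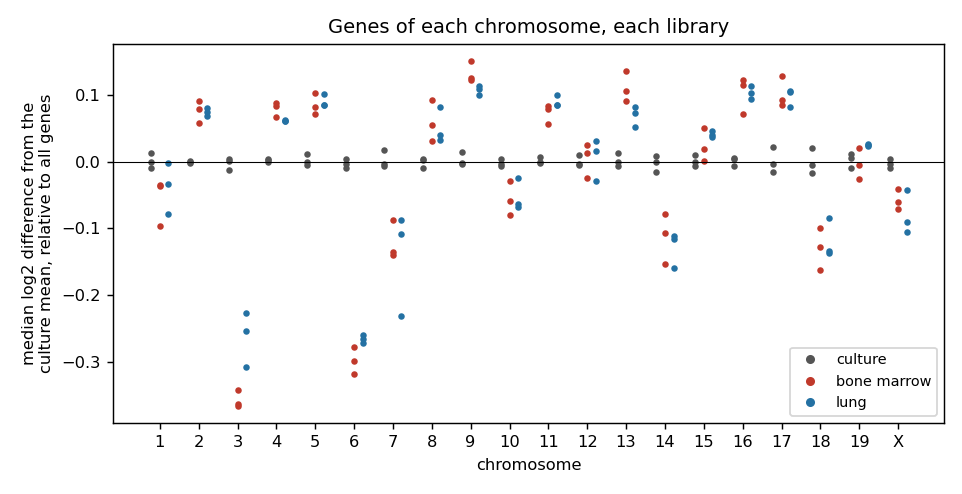
Median log2 difference from the culture mean of the genes on each chromosome, relative to all genes, for each library (each culture library is set against the other 2). Marrow and lung libraries lie lowest on chromosomes 3 and 6, where the marrow values run from -0.365 to -0.278.

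Fatty acid synthesis genes fell. None of the 18 measured genes rose and 14 fell, against 29.8% lower among all genes, with a median change of -0.98. Scd2 (chromosome 19, 44293674 to 44306864, + strand), a desaturase that makes monounsaturated fatty acids, was at 6019, 6197 and 6507 CPM in culture and 489, 377 and 431 in marrow, and had the largest loss of CPM of all passing genes (-3.85 ± 0.13, adjusted p = 1.1e-10). Its paralog Scd1 went from 577, 615 and 632 to 38.2, 31.5 and 23.2 CPM (-4.30 ± 0.18, adjusted p = 1.3e-08), with the reservation that reads of near-identical paralogs can be split between them. Me1, which supplies NADPH for fatty acid synthesis, fell from 448 ± 14.9 to 54.4 ± 5.99 CPM (-3.04 ± 0.11), and Srebf1, the SREBP factor of this pathway, from 692 ± 7.41 to 259 ± 18.98 (-1.42 ± 0.09). Culture and marrow did not overlap for any of the 4. Fasn, the synthase itself, did not pass, at 358 ± 6.11 and 305 ± 46.3 CPM. It passed as lower without marrow replicate 1 (-0.36, adjusted p = 0.0028), with limma-voom (-0.26) and with the replicate block (-0.24). With length and GC correction it passed as higher (0.24, adjusted p = 0.0097), and 2 members of the list rose. In fatty acid oxidation 6 of 16 members rose and 5 fell, shares near those of all genes (30.7% and 29.8%). Acaa2, a mitochondrial thiolase, rose (0.67 ± 0.13) while the dehydrogenases Acadl (-0.82 ± 0.08) and Etfdh (-0.78 ± 0.09) fell. The carnitine transferase Cpt1a was at 92.3 ± 5.57 and 94.4 ± 12.9 CPM.

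Cholesterol synthesis followed, with 21 of 25 measured genes lower and 2 higher, and a median of -1.59. Msmo1, a sterol demethylase, fell from 331, 339.6 and 349 to 41.4, 46.3 and 52.7 CPM (-2.86 ± 0.11). The groups did not overlap. The factor Srebf2 fell too (-1.59 ± 0.09), whereas Scap, the escort that carries SREBP proteins to the Golgi, rose from 100.03 ± 2.02 to 169.6 ± 16.03 CPM (0.76 ± 0.09, adjusted p = 9e-06). In the uptake and efflux list, Stard4, a sterol carrier, fell from 122 ± 6.52 to 26.6 ± 2.53 CPM (-2.19 ± 0.09). The exporters Abca1 and Abcg1 did not pass. Abca1 passed as lower without marrow replicate 1 (-1.17) and with the replicate block (-0.63). Apoe, a lipoprotein component, rose from 5.16 ± 1.298 to 16.1 ± 2.26 CPM (1.64 ± 0.20).

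Promoters were read from RefSeq (GRCm38.p6) as the 250 bases before the start of each gene, printed 5′ to 3′ on the gene's own strand, to show where the letters of a known response element lie. The sterol regulatory element was searched as TCACNCCAC on both strands. It was found in 1 of 20 cholesterol synthesis genes with a promoter in the table and in 1.24% of 32851 promoters, each 300 bases long. The 1 gene is Hmgcs1, an early synthase of the pathway, which fell from 275, 284 and 283 to 44.2, 38.3 and 51.9 CPM (-2.65 ± 0.11, adjusted p = 4.8e-10). Its window (chr13:119690101-119690350, + strand) holds the match in capitals, 137 bases before the start.
Hmgcs1: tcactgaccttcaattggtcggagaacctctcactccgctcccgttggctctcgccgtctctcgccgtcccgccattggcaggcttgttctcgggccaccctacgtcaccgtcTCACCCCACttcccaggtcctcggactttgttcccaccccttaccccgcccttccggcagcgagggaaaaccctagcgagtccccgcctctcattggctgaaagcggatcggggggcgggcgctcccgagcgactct

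Glycolysis fell in 19 of 24 genes and rose in 3, with a median of -1.47, and in 14 and 2 of 18 without members on chromosomes 3 and 6. The summed level of the list was between 23997.8 and 26166.7 CPM in culture and between 9168.37 and 9959.88 in marrow. Aldoa (aldolase, chromosome 7, 126795234 to 126800751, - strand) was at 4029, 4090.3 and 4371 CPM in culture and 644, 621 and 688 in marrow (-2.68 ± 0.11, adjusted p = 4.8e-10), and Gpi1, the isomerase of glucose phosphate, at 2076, 2116 and 2203 and 432, 387 and 358 (-2.44 ± 0.09). The culture and marrow libraries of both lay over 4-fold apart. Pkm (-1.46 ± 0.09), Eno1 (-1.37 ± 0.09) and Ldha (-0.82 ± 0.08), which act at the end of the pathway, fell as well. Slc16a3, the exporter of lactate induced by low oxygen, fell from 288 ± 21.5 to 5.79 ± 2.51 CPM, and Slc2a1, a glucose importer, from 88.6 ± 7.98 to 19.8 ± 1.93 (-2.16 ± 0.11). Of the pentose phosphate branch Tkt (-0.77 ± 0.08), Rpia (-1.06 ± 0.14) and G6pdx (-0.58 ± 0.09) fell.

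The hypoxia list had 16 of 20 members lower and none higher (1 with upper-quartile or no scaling or with limma-voom), with a median of -1.04, and 12 of 15 without chromosomes 3 and 6. The HIF subunit Hif1a itself was at 73.1 ± 2.36 CPM in culture and 71.3 ± 11.3 in marrow and did not pass, and Epas1 had 0 reads in all 6 libraries. Vhl, which marks HIF proteins for destruction, fell from 41.9 ± 3.57 to 24.7 ± 1.41 CPM (-0.76 ± 0.11). Bnip3, a mitophagy receptor, fell from 155, 159 and 176 to 5.18, 7.83 and 9.15 CPM (-4.46 ± 0.18). The core of the hypoxia response element, ACGTG, occurs on either strand for 15 of 23 glycolysis genes, for 12 of 15 hypoxia genes and in 19.6% of all promoters. It was held by 10 of 13 hypoxia genes that fell, and none of that list rose. In glycolysis it was held by 11 of 18 genes that fell and by all 3 that rose. Whether the letters go with a direction was not tested. The rising one with the steepest change is Hk3, a hexokinase of myeloid cells, with 2 reads in culture and 1.61, 2.23 and 12.03 CPM in marrow (ratio 251.8, interval 69.4 to 2084), highest in replicate 3 as the granule genes were. Its window (chr13:55021386-55021635, - strand) has the match on the opposite strand, in capitals, 156 bases before the start.
Hk3: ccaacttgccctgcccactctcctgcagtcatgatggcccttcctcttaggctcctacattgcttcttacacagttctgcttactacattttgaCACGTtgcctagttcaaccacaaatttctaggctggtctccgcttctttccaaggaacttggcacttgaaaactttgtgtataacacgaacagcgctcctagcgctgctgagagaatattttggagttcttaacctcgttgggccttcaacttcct

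Mitochondrial genes went the other way from glycolysis. Of nuclear genes for the respiratory chain and ATP synthase, 29 of 37 rose and 1 fell, with a median of 0.54. Cyc1, a subunit of complex III, went from 259, 255 and 258 to 504, 471 and 461 CPM (0.89 ± 0.08), and Atp5g3, of ATP synthase, from 313 ± 7.98 to 573 ± 40.3 (0.87 ± 0.08). The 1 that fell was Cox6a2, the muscle form of a complex IV subunit, from 11.2, 10.6 and 10.3 to 0.119, 0.124 and 0.0994 CPM (-6.52 ± 0.31). It is among the 12 steepest falls of genes without overlap that reached 10 CPM. Of genes that the mitochondrial genome encodes, none of the 8 tested protein-coding ones passed, with mt-Co1 at 560.5 ± 26.05 and 497 ± 84.9 CPM, but without marrow replicate 3 mt-Co1 (-0.32) and 1 other fell and without marrow replicate 2, 1 rose. Of its RNA genes, 9 of 10 tested tRNA genes fell (median -1.73) and 1 of 2 ribosomal RNA genes rose. The mitochondrial genome's share of reads was 0.2597% ± 0.0111 in culture and 0.3196% ± 0.042 in marrow (SD, n = 3, exact permutation test, two-sided p = 0.1, the smallest 3 against 3 can give). Without marrow replicate 1, 2 nuclear members fell. With correction for length and GC, 22 nuclear members rose and 5 fell, and 4 of the 8 mitochondrial protein-coding genes fell.

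The tricarboxylic acid cycle was split, with 10 of 25 members higher and 5 lower, against 30.7% and 29.8% of all genes. Idh3a, of the mitochondrial NAD-dependent isocitrate dehydrogenase, rose from 380.2 ± 16.1 to 781 ± 42.9 CPM (1.04 ± 0.08), and Sdhd of complex II by 0.74 ± 0.08. The cytosolic Idh1 fell from 135, 140.3 and 141 to 35.5, 31.6 and 45.6 CPM (-1.88 ± 0.12) and Pcx, pyruvate carboxylase, from 341 ± 15.4 to 122.6 ± 13.5 (-1.47 ± 0.09). The count of lower members was 3 without culture replicate 3, marrow replicate 2 or marrow replicate 3, and 7 without marrow replicate 1 or with limma-voom.

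**Figure D4:**
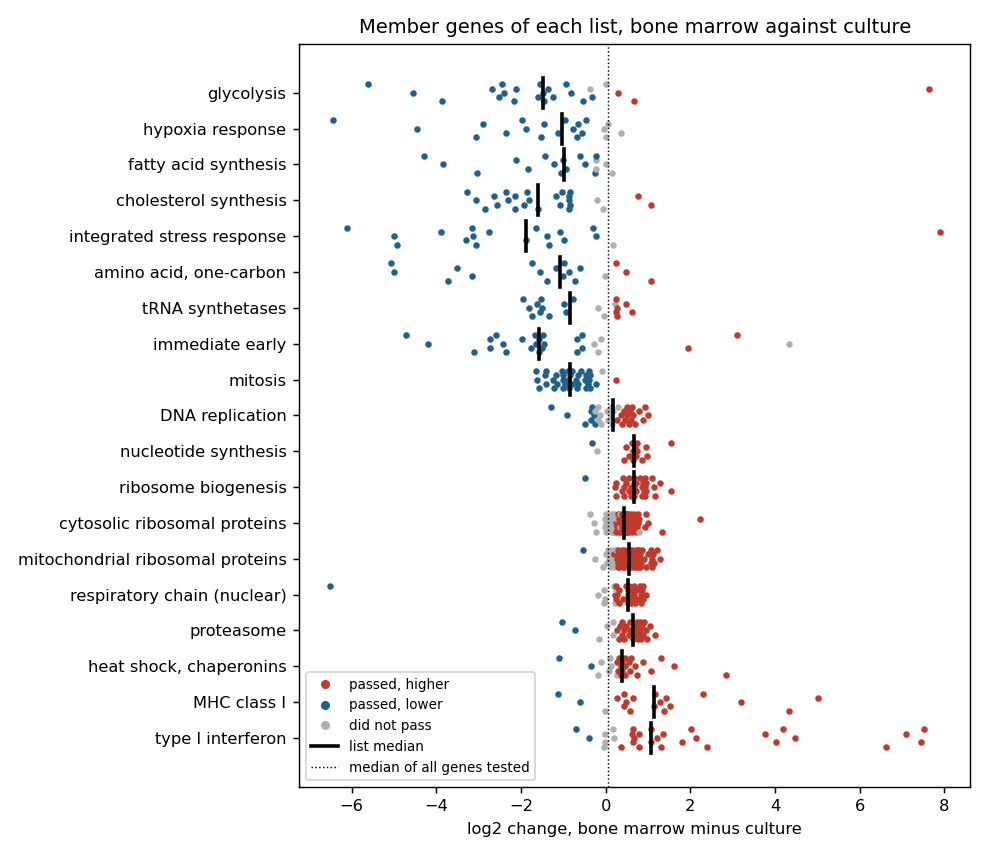
Log2 change of every tested member of 19 gene lists (1 point per gene, red and blue where it passed the test, grey where it did not), with the list median as a bar and the median of all genes as a dotted line. Points of the lipid, glycolysis, stress response and immediate early lists lie mostly left of the dotted line, and those of the ribosome, proteasome and interferon lists mostly right of it.

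Genes that make, import or charge amino acids were examined in 3 lists. In synthesis and one-carbon metabolism 14 of 18 genes fell and 3 rose (10 and 3 of 14 without chromosomes 3 and 6), with a median of -1.09. Cth, which makes cysteine from cystathionine, was at 333, 331 and 337 CPM in culture and 10.6, 8.42 and 12.1 in marrow (-5.00 ± 0.20, adjusted p = 9e-09), and the alanine transaminase Gpt2 at 97.4, 96.6 and 96.2 and 3.96, 1.52 and 3.06 (-5.08 ± 0.31). Every marrow library of both lay over 10-fold below every culture library. Pycr1, for proline (-3.50 ± 0.16), and Asns, for asparagine (-1.39 ± 0.08), fell too. Folate enzymes went both ways: the mitochondrial Mthfd2 (-3.17 ± 0.13) and Shmt2 (-1.16 ± 0.09) fell, while the cytosolic Shmt1 rose from 40.3, 40.8 and 41.2 to 87.7, 85.01 and 83.3 CPM (1.06 ± 0.09) and Mthfd1 from 335 ± 7.34 to 464 ± 50.8 (0.47 ± 0.09), and a further mitochondrial one did not pass.

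Among amino acid transporters, 10 of 16 fell and 5 rose. Slc7a3 (chromosome X, 101079210 to 101086020, - strand), a transporter of arginine and lysine, had the steepest fall of the genes that reached 10 CPM, from 52.2, 52.7 and 52.98 to 0.327, 0.465 and 0.273 CPM (-7.22 ± 0.21, adjusted p = 6.8e-11). Slc7a11, the cystine importer, came next, from 41.8, 42.03 and 45.8 to 0.178, 0.279 and 0.497 (-7.03 ± 0.22). Slc1a4, for neutral amino acids, fell from 143 ± 6.22 to 32.7 ± 5.19 CPM (-2.13 ± 0.11). A riser was Slc7a8, at 14.4, 16.3 and 14.2 CPM in culture and 46.4, 110.1 and 41.3 in marrow (2.14 ± 0.55, adjusted p = 0.013), with marrow replicate 2 well above the others. The higher count was 3 with the stricter low-count filter and without culture replicate 2, culture replicate 3 or marrow replicate 3.

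Cytosolic tRNA synthetases, which charge tRNAs with amino acids, fell in 11 of 20 and rose in 6. The losses were larger, as for Cars (-1.96 ± 0.09), Sars (-1.80 ± 0.07) and Aars (-1.74 ± 0.12), than the gains, as for Farsa (0.61 ± 0.07) and Qars (0.49 ± 0.08). The higher count fell to 2 without culture replicate 1 or culture replicate 2 and to 3 with length and GC correction.

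The integrated stress response, known to act on genes of all 3 lists, had 17 of 19 members lower, with a median of -1.88. Atf4 fell from 302, 281 and 273 to 139, 92.9 and 109 CPM (-1.33 ± 0.13) and Ddit3 (CHOP), a factor downstream of it, from 76.5, 74.04 and 66.1 to 24.2, 23.3 and 21.5 (-1.65 ± 0.11). Trib3, a pseudokinase target, went from 178, 186 and 196 to 6.34, 5.203 and 6.91 CPM (-4.92 ± 0.15, adjusted p = 6.8e-11), and Chac1, a glutathione-degrading enzyme, from 46.4 ± 1.62 to 1.44 ± 0.0904 (-5.00 ± 0.25). All 4 separated the groups. Of the kinases that start the response, Eif2ak3 (PERK) fell (-1.08 ± 0.11). Jdp2, an AP-1 family factor, was the 1 member that rose, with 0 reads in culture and 0.565, 0.403 and 1.72 CPM in marrow, at least 27.79-fold higher and highest in replicate 3.

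The amino acid response element that ATF4 and C/EBP proteins bind was searched as TGATGNAA on both strands. It occurs in 3.97% of all promoters, in 5 of 18 stress response genes, 3 of 14 synthesis genes, 3 of 12 transporters and 5 of 13 synthetases. Among synthetases, the 5 with a match were all among the 8 lower ones with a promoter, and none of 3 higher ones held it. The windows of 3 genes are shown: Jdp2, the member with the steepest change that holds a match, and Slc7a11 and Chac1, added after their values were seen as steep falls that hold a match. Capitals mark the matches. They lie 33 bases before the start in Jdp2 (chr12:85599166-85599415, + strand), 66 bases and, on the opposite strand, 47 bases before it in Slc7a11 (chr3:50443614-50443863, - strand), and 193 bases before it on the opposite strand in Chac1 (chr2:119350992-119351241, + strand).
Jdp2: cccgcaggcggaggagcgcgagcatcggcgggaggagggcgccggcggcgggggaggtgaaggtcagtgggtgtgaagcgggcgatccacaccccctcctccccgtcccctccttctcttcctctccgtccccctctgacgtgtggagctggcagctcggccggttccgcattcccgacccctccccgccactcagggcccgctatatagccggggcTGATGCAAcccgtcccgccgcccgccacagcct
Slc7a11: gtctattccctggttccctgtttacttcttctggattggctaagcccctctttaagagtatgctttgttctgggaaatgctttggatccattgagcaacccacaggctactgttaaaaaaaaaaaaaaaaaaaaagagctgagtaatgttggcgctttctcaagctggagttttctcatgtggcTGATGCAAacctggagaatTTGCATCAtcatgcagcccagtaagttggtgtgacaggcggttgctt
Chac1: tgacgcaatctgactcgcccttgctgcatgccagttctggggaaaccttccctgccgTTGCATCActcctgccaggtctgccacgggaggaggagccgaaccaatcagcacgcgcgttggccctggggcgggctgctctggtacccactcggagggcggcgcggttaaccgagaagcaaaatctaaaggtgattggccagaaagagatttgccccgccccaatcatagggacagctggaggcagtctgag
These 3 windows were picked and do not show the split by direction. By call, the match was in 4 of 16 lower stress response genes and in 1 of 1 higher, which is Jdp2. For synthesis it was in 3 of 11 lower and 0 of 2 higher genes. For transporters it was in 3 of 8 lower and 0 of 4 higher genes.

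Endoplasmic reticulum genes went both ways. Of the list, 13 of 23 members rose and 5 fell. Those that rose included Creld2, a folding factor, from 27.5 ± 2.21 to 71.4 ± 2.16 CPM (1.38 ± 0.11) and the cochaperone Dnajc3 (0.68 ± 0.08). Those that fell were the sensor and factor genes Atf6 (-1.29 ± 0.10) and Xbp1 (-0.65 ± 0.16) and the degradation genes Herpud1 (-1.60 ± 0.10), Edem1 (-1.28 ± 0.09) and Sel1l (-0.44 ± 0.08). Hspa5 (BiP), the main chaperone, did not pass, at 676, 712 and 708 CPM in culture and 691, 766 and 875 in marrow, and passed as higher without marrow replicate 1 (0.23). Sel1l was chosen after its value was seen, to complete the group that fell, and its call was lost with length and GC correction.

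Ribosome production rose almost throughout. Of 35 nucleolar and processing genes 34 rose, with a median of 0.68, and with length and GC correction 32 rose and 0 fell. Bop1 (chromosome 15, 76452989 to 76477277, - strand), of the complex that processes large-subunit RNA, was at 102, 103 and 102 CPM in culture and 305, 297 and 291 in marrow (1.54 ± 0.09, adjusted p = 9.5e-09), and Nhp2, a pseudouridylation protein, at 81.6 ± 4.11 and 199 ± 10.9 (1.28 ± 0.09). Ncl (nucleolin) rose from 837, 813 and 788 to 2049, 1341 and 1356 CPM (0.96 ± 0.14), with marrow replicate 1 above the other two, and Npm1 (nucleophosmin) rose as well (0.54 ± 0.08). The 1 that fell was Polr1a, the large subunit of RNA polymerase I (-0.49 ± 0.09), while Polr1e of the same enzyme rose (1.16 ± 0.14). The call for Polr1a was lost with length and GC correction.

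Myc itself rose a little, from 591, 623 and 585 to 754, 691 and 736 CPM (0.28 ± 0.08, adjusted p = 0.0071), and its antagonists Mnt (-0.76 ± 0.16), Mxd1 (-1.27 ± 0.25) and Mxd3 (-0.78 ± 0.15) fell. The E-box that MYC binds, CACGTG, which contains the letters ACGTG searched above, occurs for 6 of 31 ribosome production genes and in 7.15% of all promoters.

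Ribosomal proteins rose by smaller amounts. For the cytosolic ribosome 54 of 79 rose and none fell (median 0.44), and for the mitochondrial ribosome 62 of 77 rose and 1 fell (median 0.56). Mrpl41, of the mitochondrial ribosome, went from 35.7, 33.1 and 34.3 to 71.3, 97.5 and 82.2 CPM (1.28 ± 0.11), with no overlap. These transcripts are short, with median lengths of 1059 and 1884 bases, and processed pseudogenes can take reads of the cytosolic ones. With length and GC correction 37 cytosolic members rose and 7 fell, and 53 mitochondrial members rose and 5 fell. Without marrow replicate 2, 3 cytosolic and 2 mitochondrial members fell. The translation factor Eif5a, among the 6 largest gains of CPM, rose from 1636 ± 47.8 to 2768 ± 242 (0.76 ± 0.08).

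Protein turnover and folding followed the same direction. Of 35 proteasome genes 29 rose and 2 fell (median 0.64, and 25 and 3 with length and GC correction). Psma4, of the core particle, went from 133, 124 and 137 to 283, 309.6 and 297 CPM (1.17 ± 0.08). Nfe2l1, the factor known to raise proteasome genes, fell from 236, 240.4 and 243 to 130.2, 107 and 113 (-1.04 ± 0.09), and so did Psme4, an alternative cap (-0.72 ± 0.11). In the heat shock and chaperonin list 20 of 28 rose and 2 fell (median 0.38). Hspe1, the mitochondrial cochaperonin, rose from 117 ± 6.68 to 246 ± 24.4 CPM (1.07 ± 0.11) and Hsp90ab1 by 0.46 ± 0.11. The heat shock element, searched as GAA, any 2 bases, TTC, any 2 bases and GAA on both strands, occurs for 4 of 21 of these genes and in 0.603% of all promoters.

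Lysosome and autophagy genes moved against the proteasome, with 16 of 27 lower and 4 higher (median -0.43). Hexa, a hexosaminidase, fell from 67.4, 68.8 and 67.9 to 10.8, 7.59 and 9.15 CPM (-2.89 ± 0.14) and the protease Ctsl from 227 ± 4.11 to 39.3 ± 6.603 (-2.53 ± 0.12). Tfe3, a factor for lysosome genes, fell (-1.09 ± 0.09) and its relative Tfeb did not pass. Gusb (glucuronidase) and Lamp1, a membrane protein of the lysosome, rose, by 0.92 ± 0.07 and 0.69 ± 0.07.

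Antioxidant genes were divided. Gpx1 (chromosome 9, 108338903 to 108340343, + strand), a selenium peroxidase that removes hydrogen peroxide, was at 306, 289.8 and 301 CPM in culture and 1117, 1483 and 1257 in marrow (2.10 ± 0.10, adjusted p = 2.3e-09), among the 6 largest gains of CPM. Prdx1 (peroxiredoxin) rose from 455, 418 and 462 to 848, 1003 and 986 (1.09 ± 0.08), while Srxn1 (sulfiredoxin), which repairs peroxiredoxins, fell from 28.5, 31.9 and 32.2 to 6.22, 5.26 and 4.201 (-2.56 ± 0.17). All 3 separated the groups without overlap. Of the whole NRF2 and pentose phosphate list 7 of 18 rose and 9 fell. Nqo1 (0.71 ± 0.10) and Txnrd1 (0.61 ± 0.09) rose and Nfe2l2, which encodes NRF2, fell (-0.35 ± 0.10).

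Of mitosis genes 35 of 37 fell (median -0.83, 29 of 31 without chromosomes 3 and 6, and 35 with length and GC correction, though their median transcript length of 3847 bases is long). Mki67, a coat protein of mitotic chromosomes, went from 622, 592 and 598 to 257, 149.8 and 169 CPM (-1.65 ± 0.16), and Cenpe, a kinetochore motor, from 129, 125 and 122 to 47.7, 34.002 and 40.1 (-1.63 ± 0.12). Hmmr, a spindle protein (-1.57 ± 0.08), and Cdk1, the mitotic kinase (-0.40 ± 0.09), fell as well.

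Replication genes had 17 of 37 higher and 8 lower (median 0.18). Tyms, which makes thymidylate, rose from 137, 130.2 and 126 to 252, 257 and 273 CPM (0.99 ± 0.07) and Chaf1b, of the chromatin assembly factor, from 75.4 ± 3.22 to 145 ± 20.3 (0.94 ± 0.10). E2f2 (-1.30 ± 0.12), Pold1 (-0.90 ± 0.09) and Mcm2 (-0.48 ± 0.10) fell. The lower count was 5 without marrow replicate 2 and 12 without marrow replicate 1, and 10 with DESeq2 and 11 with limma-voom. Nucleotide synthesis rose in 14 of 16 genes (median 0.68): Prps2, which makes the ribose phosphate donor, went from 39.9, 39.5 and 46.3 to 129, 115 and 125 CPM (1.55 ± 0.10), and the purine enzymes Adsl and Pfas rose by 0.99 ± 0.08 and 0.95 ± 0.10.

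In the transition from G1, Cdk4 rose (0.53 ± 0.08) and Ccnd3, a D-type cyclin, fell (-0.65 ± 0.18), and of the inhibitors of cyclin-dependent kinases 4 of 6 in the list fell and 2 did not pass. Cdkn2b fell from 19.1, 20.5 and 19.5 to 3.57, 5.39 and 4.599 CPM (-2.12 ± 0.15), Cdkn1b from 14.7 ± 0.775 to 4.69 ± 0.801 (-1.65 ± 0.17) and Cdkn1a from 34.7 ± 1.84 to 1.64 ± 0.814 (-4.42 ± 0.32). Of the G1 list, 3 of 17 members rose and 8 fell.

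Trp53 itself, altered in all libraries, was at 297, 295 and 293 CPM in culture and 355, 307 and 299 in marrow and did not pass, and these counts do not tell the 2 alleles apart. Of p53 targets 5 of 25 rose and 11 fell, against 30.7% and 29.8% of all genes. Bax, which opens mitochondria in apoptosis, rose from 62.3, 60.9 and 58.2 to 103, 115 and 109 CPM (0.85 ± 0.10) and Mdm2 fell (-0.43 ± 0.10). In the BCL2 family the 5 that rose promote death, among them Bad (0.66 ± 0.12) and Bid (0.57 ± 0.13). The 5 that fell include the protective Bcl2 (-0.59 ± 0.12) and Bcl2l1 (-0.75 ± 0.12), and also the pro-death Bcl2l11 (BIM, -0.70 ± 0.12). The protective Mcl1 did not pass, at 331 ± 6.53 and 299 ± 19.7 CPM.

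**Figure D5:**
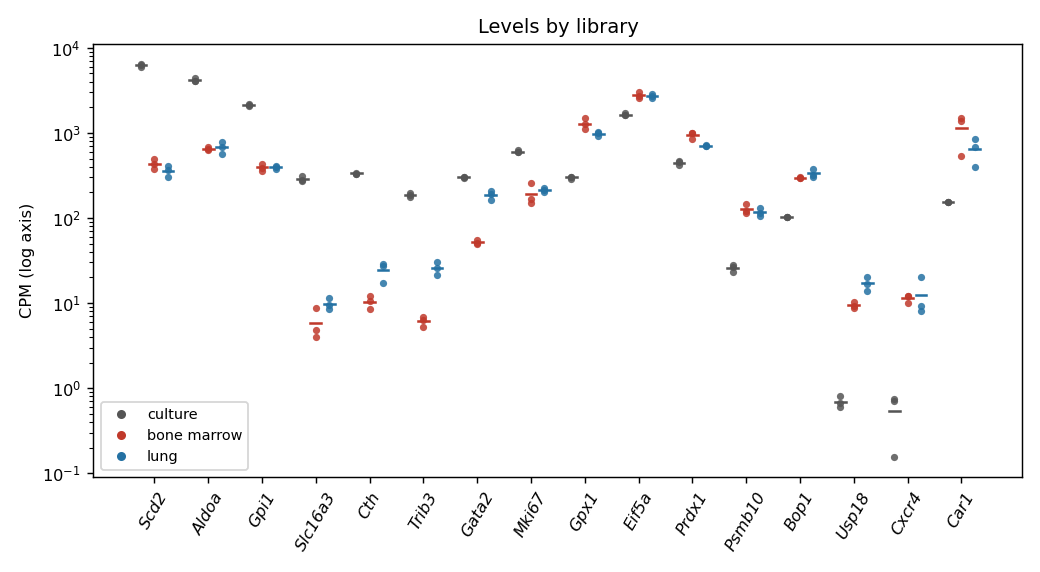
CPM on a log axis of 16 genes in the 3 libraries of each group (points) with group means (bars), lung shown beside culture and marrow. Marrow and culture points do not overlap for any of the 16.

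Immediate early genes, which signals from the surface switch on within minutes, fell in 21 of 27 (median -1.57). Egr1 was at 193, 194 and 172 CPM in culture and 7.199, 7.59 and 6.56 in marrow (-4.71 ± 0.19), and Jun at 168, 176 and 166 and 39.8, 43.5 and 45.6 (-1.99 ± 0.12). In lung these 2 stood at 140.5 ± 38.9 and 742 ± 139.6 CPM, above marrow by 4.30 ± 0.18 and 4.11 ± 0.13 (adjusted p = 5.4e-08 and 1.8e-10), so marrow was the lowest of the 3 groups for both. Between lung and marrow 25.3% of all genes passed. Dusp1, a phosphatase that ends MAPK signals, was lowest in marrow too (29.4 ± 2.18, 5.42 ± 0.7899 and 381 ± 65.9 CPM in culture, marrow and lung). In the NF-kB list 10 of 22 fell: the subunits Relb (-2.55 ± 0.14), Nfkb2 (-1.79 ± 0.09) and Rela (-0.62 ± 0.08) fell, while the feedback genes Nfkbia and Tnfaip3 did not pass.

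Receptors for blood cytokines gave 8 higher and 4 lower of 17, against 30.7% and 29.8% of all genes. Epor, for erythropoietin, rose from 131, 136 and 124 to 175, 187 and 176 CPM (0.46 ± 0.08), evenly across the marrow libraries. Csf3r, the neutrophil growth factor receptor, went from 1 read to 521 (ratio 430.1, interval 76.85 to 17020), with 0.684, 1.77 and 10.96 CPM by marrow library, the order of the granule genes. Csf2rb, the common chain for IL-3 and GM-CSF, fell from 20.9, 21.5 and 22.1 to 1.904, 2.57 and 6.61 CPM (-2.52 ± 0.47). Downstream, Cish (-1.02 ± 0.15), a feedback target of STAT5, Jak3 (-0.88 ± 0.12) and Jak2 (-0.62 ± 0.16) fell and Stat5a rose (0.54 ± 0.08).

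The interferon response rose. Of type I interferon genes 24 of 31 were higher and 2 lower, with a median of 1.08, and 24 of 32 were higher without marrow replicate 3. Usp18, a feedback protease, was at 0.668, 0.8001 and 0.604 CPM in culture and 10.4, 9.197 and 8.73 in marrow (3.76 ± 0.20), Parp14 at 5.602, 7.23 and 7.5996 and 15.8, 16.6 and 17.9 (1.30 ± 0.13), and Irf9, a subunit of the factor that reads the signal, at 41.99 ± 2.39 and 88.3 ± 13.1 (1.07 ± 0.13). Marrow replicate 3 was the lowest of its group for Usp18. The 2 lower members were Stat2, the partner of Irf9 (-0.40 ± 0.12), a call lost with length and GC correction, and Ifit2 (-0.69 ± 0.14). The receptor gene Ifnar2 fell (-0.60 ± 0.09). Among genes known for interferon gamma 13 of 18 rose, such as Tgtp2, a GTPase, from 2.97, 2.68 and 2.84 to 14.8, 18.7 and 19.2 CPM (2.64 ± 0.15) and Socs1, a feedback inhibitor, from 7.94, 7.91 and 7.81 to 23.7, 23.6 and 22.5 (1.56 ± 0.14). Tgtp2 has a near-identical neighbour, so its own count is uncertain.

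The interferon-stimulated response element was searched as GAAA, any 2 bases and GAAA on both strands. It was found for 12 of 23 type I interferon genes and in 3.44% of all promoters. By call, the match was in 6 of 16 members that rose and in 1 of 2 that fell. Oas1a, an antiviral synthase, had the steepest change among those with a match, from 2 reads in culture to 530 in marrow (ratio 218.7, interval 60.26 to 1811), with 2.59, 5.67 and 6.46 CPM by marrow library. It belongs to a family of close copies. Its window (chr5:120907526-120907775, - strand) holds 2 overlapping matches, 20 and 14 bases before the start, in capitals.
Oas1a: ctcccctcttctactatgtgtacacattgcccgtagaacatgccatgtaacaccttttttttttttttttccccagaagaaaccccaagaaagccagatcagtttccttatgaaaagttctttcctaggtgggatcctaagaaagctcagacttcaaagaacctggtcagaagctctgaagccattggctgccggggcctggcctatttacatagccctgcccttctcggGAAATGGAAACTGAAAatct

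Antigen presentation by MHC class I rose in 16 of 19 genes (median 1.15). The size of the median depended on the genes tested. It was 0.62 in the 6 libraries alone and 0.63 with the stricter low-count filter, with 13 of 16 higher in each. Psmb10 (chromosome 8, 105935735 to 105938444, - strand), an immunoproteasome subunit, went from 27.8, 23.4 and 26.8 to 113, 147 and 121 CPM (2.29 ± 0.12, adjusted p = 4.1e-09), Psmb8 from 48.1 ± 2.096 to 129 ± 11.2 (1.42 ± 0.09) and Tap1, of the peptide transporter, rose too (0.58 ± 0.10). The classical heavy chains went opposite ways: H2-D1 rose from 355, 380.2 and 375 to 495, 561 and 498 CPM (0.49 ± 0.08), and H2-K1 fell from 265, 257 and 247 to 126, 127 and 102 (-1.11 ± 0.09, adjusted p = 2.2e-07). Lung H2-K1 was at 247 ± 9.26 CPM, higher than marrow by 1.06 ± 0.09 (adjusted p = 3.8e-06). These heavy chain genes share long stretches of sequence, so reads may be split between them. Of MHC class II genes 5 of 8 rose and 2 fell, with 1 higher under the stricter low-count filter. Of the checkpoint and NK ligand genes 4 of 14 fell, a share near the 29.8% of all genes, with the nectins Nectin2 (-1.47 ± 0.11) and Pvr (-1.17 ± 0.22) among them, and Cd274 (PD-L1) at 4.41 ± 0.706 and 3.63 ± 0.477 CPM did not pass.

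Of lineage regulators 5 of 22 rose and 8 fell, shares not far from those of all genes (30.7% and 29.8%). Gata2 (chromosome 6, 88193891 to 88207032, + strand), a factor of early progenitors, was at 301, 296 and 300.4 CPM in culture and 55.5, 50.1 and 51.2 in marrow (-2.52 ± 0.09, adjusted p = 2.8e-10), and lung stood between them at 186 ± 22.01, above marrow by 1.83 ± 0.09 (adjusted p = 2.1e-08). Gfi1b, a repressor of erythroid and megakaryocyte cells, fell from 601, 612 and 622 to 303, 414 and 297 CPM (-0.85 ± 0.15), and Nfe2 (-0.89 ± 0.13), Runx1 (-0.68 ± 0.14) and Myb (-0.31 ± 0.08) fell too. Spi1 (PU.1), a myeloid master factor, rose from 4.56, 4.15 and 3.09 to 7.56, 9.72 and 14.3 CPM (1.42 ± 0.26), highest in replicate 3, and Hhex rose from 38.8 ± 0.914 to 62.1 ± 8.35 (0.68 ± 0.13). Tal1 did not pass, at 59.2 ± 0.157 and 66.7 ± 6.77 CPM. It did as higher without marrow replicate 1 (0.24), with upper-quartile scaling (0.24) and with length and GC correction (0.31). In the HOX, MEIS and PBX list 9 of 14 tested members fell, Hoxd8 from 23.1, 22.6 and 22.9 to 1.904, 0.836 and 0.994 CPM (-4.20 ± 0.24).

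Of erythroid and haem genes 9 of 29 rose and 8 fell, shares near those of all genes. Car1 (carbonic anhydrase 1, chromosome 3, 14766216 to 14808368, - strand) rose from 152, 154 and 153 to 1477, 1389 and 539 CPM (2.89 ± 0.45, adjusted p = 0.0011), lower in replicate 3 than in the other two. In haem synthesis Alas1, the first enzyme outside red cells, rose (0.79 ± 0.10), while Cpox fell from 1367, 1404 and 1426 to 473, 455 and 506 CPM (-1.55 ± 0.10) and Alas2, the red cell form, did not pass. Add2 (adducin), of the red cell membrane skeleton, fell from 183, 191 and 183 to 21.9, 23.1 and 19.3 CPM (-3.12 ± 0.10). The globin gene Hba-a1 was at 39.1, 36.7 and 36.4 and 32.8, 51.3 and 29.1 CPM and did not pass. For iron, the transferrin receptor Tfrc fell from 717, 796 and 845 to 239.9, 409 and 404 CPM (-1.16 ± 0.19) and Ncoa4, which delivers ferritin for breakdown, fell too (-0.70 ± 0.11), while Fth1 (ferritin) did not pass, but did as higher without marrow replicate 3 (0.22) and with upper-quartile or no scaling (0.21 and 0.20). Of mast cell and basophil genes 4 of 9 fell and 2 rose (median -0.43), against 29.8% and 30.7% of all genes. Hdc, which makes histamine, fell (-1.16 ± 0.16) and Cpa3, a mast cell protease, rose (0.80 ± 0.19). The list summed to between 979.4 and 989.1 CPM in culture and between 689.7 and 785.6 in marrow.

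Homing and adhesion genes had 5 of 21 higher (3 without marrow replicate 3) and 10 lower, against 30.7% and 29.8% of all genes. Cxcr4 (chromosome 1, 128588199 to 128592293, - strand), the receptor for the marrow chemokine CXCL12, was at 0.705, 0.154 and 0.746 CPM in culture and 12.05, 9.97 and 12.2 in marrow (4.45 ± 0.51, adjusted p = 4.8e-05), with no library of marrow apart from the others. Its ligand Cxcl12 had 0 reads in culture and 85 in marrow, at least 23.39-fold higher. Itgb2, a leukocyte integrin chain, rose from 34.9, 34.8 and 36.9 to 59.7, 66.3 and 74.996 CPM (0.91 ± 0.10). S1pr1, which draws cells out of marrow into blood, fell from 33.6, 32.4 and 34.9 to 6.87, 10.5 and 10.7 (-1.84 ± 0.19), Itga4 (of VLA-4) from 362, 389 and 391 to 225, 173 and 165 (-1.02 ± 0.19) and Cd44, a receptor for hyaluronan, fell too (-0.74 ± 0.08).

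Of actin genes 5 of 17 fell, a share near the 29.8% of all genes, with Vcl (vinculin) going from 219.7, 228 and 225 to 66.5, 63.7 and 65.3 CPM (-1.78 ± 0.09) and Tpm4 (tropomyosin) also lower (-1.91 ± 0.12), Flna (filamin) rose (0.54 ± 0.10), and Actb did not pass. Of nuclear envelope genes 8 of 12 fell: Lmna (lamin A/C) was at 378 ± 19.6 CPM in culture and 207 ± 22.6 in marrow (-0.87 ± 0.09) and at 957 ± 51.6 in lung. Lmnb1 rose (0.43 ± 0.13). In the TGF-beta list 4 of 14 rose and 6 fell, against 30.7% and 29.8% of all genes. The ligand Tgfb1 (-0.95 ± 0.10) and the receptor Tgfbr1 (-1.05 ± 0.12) fell, while Id1, a BMP target, rose (0.83 ± 0.16). In the matrix list 5 of 18 rose and 8 fell (5 without culture replicate 1), against 30.7% and 29.8% of all genes. Col5a1 (0.71 ± 0.11) was among the higher, and Col1a2 (-0.72 ± 0.15) and Col18a1 (-1.70 ± 0.24) among the lower.

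The DNA methyltransferases changed in opposite directions. Dnmt3a, a de novo DNA methyltransferase, fell from 85.5, 84.7 and 82.6 to 19.6, 13.1 and 19.3 CPM (-2.28 ± 0.14), and Dnmt3b, the other one, rose from 8.61, 8.46 and 10.2 to 23.4, 19.6 and 16.8 (1.13 ± 0.14). The maintenance enzyme Dnmt1 did not pass, but fell without marrow replicate 1 (-0.43, adjusted p = 0.00018) and with limma-voom (-0.30). Tet2 (-1.48 ± 0.14) and Tet3 (-0.85 ± 0.11), which oxidise methylcytosine, fell, as did Ezh2 of the polycomb complex (-0.61 ± 0.08), and Bmi1 of the other polycomb complex rose (0.52 ± 0.08). In the clock and glucocorticoid list 4 of 19 rose and 7 fell, shares not far from those of all genes (30.7% and 29.8%). Per1 (1.37 ± 0.33) and Per2 (0.65 ± 0.17) rose, and Cry2 (-0.77 ± 0.10) and the glucocorticoid receptor Nr3c1 (-1.04 ± 0.10) fell. Its known targets went both ways: Tsc22d3 (-0.99 ± 0.18) was among those that fell, and others rose or did not pass.

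Long noncoding RNAs rose in 12 of 17 (median 0.92), most of them hosts of small nucleolar RNAs. Snhg4 went from 42.3, 37.05 and 33.7 to 122.8, 211 and 117 CPM (1.998 ± 0.21) and Snhg15 from 21.8, 20.2 and 15.2 to 42.5, 47.2 and 56.5 (1.36 ± 0.17). The nuclear RNAs Malat1 and Neat1 did not pass. Whether the counts used strand is not stated, so reads of overlapping or antisense genes may be among these.

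Genes that belong to no list were among the steepest falls as well. The 12 steepest among genes that reached 10 CPM included Chst1, a sulfotransferase, from 48.4, 48.2 and 49.5 to 0.744, 0.372 and 0.497 CPM (-6.49 ± 0.20), Kcnh1, a potassium channel, from 17.4 ± 0.398 to 0.176 ± 0.105 (-6.58 ± 0.27), Emp2, a membrane protein, from 14.1 ± 0.523 to 0.155 ± 0.0656 (-6.43 ± 0.43), and Cnn3 (calponin 3) from 129.7 ± 0.6299 to 2.49 ± 1.37 (-5.71 ± 0.30). These 12 were picked among genes whose culture and marrow libraries do not overlap, so the lack of overlap of these 4 is no result.

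In 5 rising lists, picked after the values were seen because they show it, the few lower members lay on chromosomes 3 and 6. Ribosome production (1), mitochondrial ribosomal proteins (1), heat shock and chaperonins (2), nucleotide synthesis (1) and the interferon gamma genes (2) held 7 lower members in all, and without members on chromosomes 3 and 6 none of the 5 lists held one. Polr1a, Mrpl35 (-0.53 ± 0.10) and Cct7 (-0.36 ± 0.07) lie on chromosome 6, and Gmps (-0.33 ± 0.10), Hspa4l (-1.11 ± 0.11), Gbp7 (-0.48 ± 0.08) and Gbp5 (-1.64 ± 0.28) on chromosome 3. The call for Gmps was lost with length and GC correction (-0.06, adjusted p = 0.63) and without culture replicate 3, marrow replicate 2 or marrow replicate 3, and without marrow replicate 1 the nucleotide list held 2 lower members. Gbp5 was named to complete the set. Other rising lists did not show it: the proteasome, type I interferon and MHC class I lists had 2 lower members each, and the respiratory chain and long noncoding RNA lists 1 each, with and without these chromosomes. Of the 4490 lower genes of the whole table, 344 lay on chromosome 3 and 292 on chromosome 6.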

How the data were processed

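The deposited files hold whole-number read counts per gene, 1 file for each of the 9 libraries, which the authors made from their reads. Per the labels' protocols, RNA came from an RNeasy micro kit, cDNA from SMART-seq v4 and libraries from a ThruPLEX kit. Bcl2fastq, STAR and the mm10 build are named per the submitters' processing notes. Their versions, the counting tool and whether it used strand were not given in the sources used here.

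Libraries were grouped by title (3 culture, 3 bone marrow, 3 lung). Counts of 15066 genes passing edgeR's filterByExpr were scaled by TMM and fitted with edgeR 4.0.16 (quasi-likelihood test, robust, group as the only term) in R 4.3.3 over all 9 libraries. The comparison is bone marrow minus culture, with Benjamini-Hochberg adjustment over all genes tested and a threshold of 0.05. Depths between 27485111 and 38761363 reads limit precision for genes of a few reads, whose ratios carry exact binomial intervals or a floor of 3 reads over the group. Transcript lengths and positions come from GENCODE M21 (GRCm38), promoters from RefSeq (GRCm38.p6, 250 bases before the start printed of windows that also hold 50 after it). Alternatives were RLE, upper-quartile and no scaling, no or a stricter low-count filter (1 CPM in 6 libraries), DESeq2 1.42.0, limma 3.58.1 (voom), 6 libraries alone, a replicate block, a 1.5-fold threshold, leaving out each library, and a correction for transcript length and GC added after seeing the data. On simulated data from these libraries' means, the test recovered 52.2%, 83.6% and 100% of genes changed 1.5-fold, 2-fold and 4-fold, with 12 false calls among 14691 genes. The simulation changed 67, 67 and 66 genes of 1 CPM or more and gave each gene the same spread in all groups. In the data 60.5% of genes passed and the spread was wider in marrow, so these rates need not hold for the comparison.

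Gene lists and their members were chosen with earlier results of these data known. Genes named are the 12 steepest in each direction at 10 CPM or more without overlap, the 6 largest CPM differences in each direction, up to 3 members per direction and the key members of each list, and the 2 most abundant of each marker list. Other genes are marked in the text, apart from those with printed promoters (the steepest list member holding the motif) and the marker gene Flt3, which were chosen after their values were seen. Some named genes are not reported here.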

Additional observations from a re-analysis of the deposited data

How the results depend on the processing

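Across RLE, upper-quartile and no scaling, no low-count filter, DESeq2, limma-voom with quality weights, the 6 libraries alone and the correction for length and GC, between 8852 and 9747 genes passed, against 9116. Leaving out each library in turn gave between 7962 and 9343 genes. The requirement of a 1.5-fold change left 3916 genes, 1896 higher and 2020 lower, and 58 of 243 named genes lost their call. Rising members went from 54 to 7 for cytosolic ribosomal proteins, 29 to 8 for the respiratory chain, 20 to 4 for heat shock and 14 to 3 for nucleotide synthesis. Ribosome production went from 34 to 15, and falling glycolysis genes from 19 to 17. The stricter low-count filter left 861 genes over 2-fold higher and 1171 over 2-fold lower, from 1890 and 1833, with 11363 genes tested. Of marker lists it left 5 of 18 neutrophil, 3 of 9 primary granule, 2 of 7 monocyte and 1 of 9 macrophage genes as higher, with the other members no longer tested. Marrow and lung libraries alone can meet this filter, so it need not remove genes at a few reads in culture. The replicate block gave 9228 genes, and 8597 over the 6 libraries alone. Same-numbered marrow and culture libraries did not deviate together (correlations of -0.057, 0.002 and -0.018). Weak correlations over all genes cannot exclude that the numbers pair the samples, and the labels do not say. The share of higher genes among those passing ran from 48.4% to 56.2%.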
